A study of Danio rerio with 4 samples.

Results

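The windows described here are stretches of 1 kb of the zebrafish genome, picked by their share of methylated reads over all reads. This share was lower at 8 and 24 hours post fertilization (hpf) than at 2 and 4 hpf. With each CpG given the same weight in all libraries, 67 of 714 such windows kept a fall of 15 percentage points. Whole embryos were profiled by whole-genome bisulfite sequencing at the 64-cell stage (2 hpf), in the late blastula at dome stage (4 hpf), in the gastrula at 75% epiboly (8 hpf) and after 24 hpf of development, with 1 library per stage and no treatment or mutant. Each library is a mixture of all cells of the embryo, so a level is an average over cell types. Neither the strain nor the number of embryos per library is given in the sources used here.

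A window was eligible with 6 or more covered CpGs and 40 or more reads in all 4 libraries and a mean coverage of at most 3 times the library median. Its level is the share of methylated reads among all reads over its CpGs. A falling window is one in which the higher level of 8 and 24 hpf lay at least 15 percentage points below the lower level of 2 and 4 hpf. This held for 719 of 1024982 eligible windows, or 0.0701%. The mirror rule, a rise of 15 points by 8 hpf that is kept at 24 hpf, held for 1355 windows, or 0.132%. Because the rule used the levels of all 4 libraries, these levels are a description and no test was made on them.

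Methylation of cytosines in CpGs is copied to the new strand at each division by the maintenance methyltransferase Dnmt1, and it is lost either by division without copying or through oxidation by Tet enzymes. Most CpGs of the zebrafish embryo are highly methylated, and the hypo-methylated regions (HMRs) that interrupt them lie mainly at promoters and at some enhancers. At 4 hpf the embryo is past the mid-blastula transition, when its own genome is first transcribed in earnest, and at 8 hpf it is in gastrulation.

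Falling windows had lower levels than other windows already at 2 and 4 hpf. At 2, 4, 8 and 24 hpf their median level was 76.8%, 78.1%, 53.9% and 53.5%. Over all eligible windows it was 92.4%, 92.4%, 92.8% and 89.4% at these stages. The mean of the late levels minus the mean of the early levels had a median of -22.8 points in the falling windows and of -1.11 points in all eligible windows. Windows at 50 to 75% at 4 hpf were most often among the falling ones, with 238 of 39160 (0.608%), against 186 of 826602 (0.0225%) at 85% or more. The level at 4 hpf is part of the rule, and windows low at that stage had little room to fall. These shares are therefore not independent of the choice. The parts of counting error and of reads moving between CpGs in them were not tested.

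A loss from full methylation to an unmethylated state was rare. Of the 719 windows, 359 (49.9%) were above 75% at both early stages, against 90.5% of all eligible windows. Below 25% at both late stages were 52 (7.23%, against 2.75%), but only 1 met both conditions. That window is chr24:43873001-43874000, described below. Of its 48 CpGs, 46 together still had 93.6% of reads methylated at 8 hpf and 94.5% at 24 hpf. Between 25 and 75% at both late stages lay 618 windows (86.0%, against 4.51% of all eligible windows). Below 10% at both late stages lay 12 windows (1.67%), and 9 of them (1.25%) were below 5%. These shares were no higher than in all eligible windows, with 1.93% and 1.52%. The rule caps the late levels and cannot pick windows unmethylated at every stage. The contrasts of late levels with all eligible windows therefore follow in part from the choice. From 8 to 24 hpf, 450 windows (62.6%) moved by less than 5 points, near the 64.4% of all eligible windows. By another 15 points or more fell 28 (3.89%, against 1.85%), and 14 rose by 15 points or more (1.95%, against 0.873%).

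**Figure D1:**
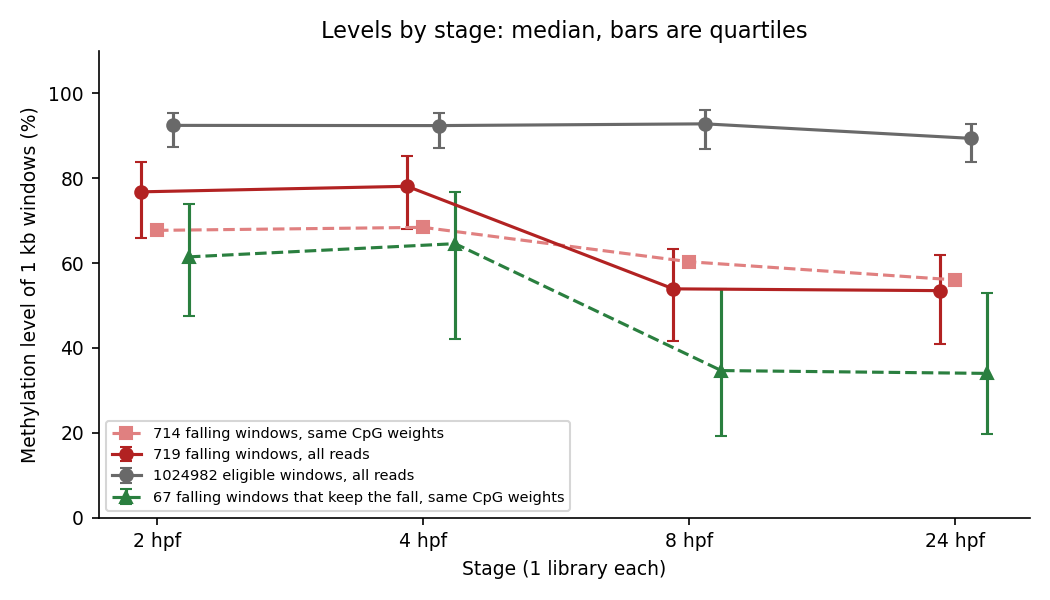
Methylation level in percent (y axis) of 1 kb windows at the 4 stages (x axis, 1 library each). Points are medians and bars the quartiles. Over all reads the 719 falling windows have medians of 53.9% at 8 hpf and 53.5% at 24 hpf, while with the same weight for a CpG in all libraries (squares, no bars drawn) the medians are 60.3% and 56.0%. The 67 windows that keep the fall under these weights (triangles) reach 34.7% and 34.0%.

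The window with the largest fall shows how a level over all reads can move. It lies on chromosome 24 at chr24:43873001-43874000 (Zv9), holds 48 CpGs, and 79.8% of its 657 reads were methylated at 2 hpf (Wilson 95% interval 76.5 to 82.7). At 4 hpf this was 75.5% of 673 reads (72.1 to 78.6), at 8 hpf 23.1% of 476 (19.5 to 27.1) and at 24 hpf 24.2% of 889 (21.5 to 27.1). All intervals here cover counting error only, and they are too narrow, because 1 read can be counted at more than 1 CpG. The first 2 CpGs of the window took 27.2%, 24.7%, 90.1% and 83.6% of its reads at 2, 4, 8 and 24 hpf. The 46 other CpGs had 96.0%, 97.0%, 93.6% and 94.5% of reads methylated at the 4 stages, with 47 reads in all at 8 hpf. At the first CpG alone, 53.4% of 118 reads were methylated at 2 hpf, 16.7% of 96 at 4 hpf, 19.02% of 347 at 8 hpf and 13.0% of 554 at 24 hpf. With each CpG given the same weight in all 4 libraries, the harmonic mean of its coverages, the window had 52.0%, 32.4%, 33.1% and 29.8%, with its step between 2 and 4 hpf. These weights differ between CpGs, and here the first 2 carried 74.8% of the weight.

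For all windows each level was then computed again in this way, with the same weight for a CpG in all 4 libraries, over the CpGs covered in all of them. This comparison was added after the data were seen. Of the 719 windows, 714 had 6 or more such CpGs. Their medians were 67.7%, 68.4%, 60.3% and 56.0% at the 4 stages, and the median difference between late and early means was -9.69 points (quartiles -15.01 and -4.65). Over all eligible windows it was -1.07 points. A difference below 0 was found in 673 of the 714 windows (94.3%, against 69.7% of all eligible windows). The windows were picked on the same reads, so this excess is not independent of the choice. Within 5 points of 0 lay 189 windows, and 67 windows (9.38%) still met the rule of 15 points. Over all 1022739 windows with 6 or more shared CpGs, 138 met the rule with these weights (0.0135%), and 240 met the mirror rule (0.0235%).

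**Figure D2:**
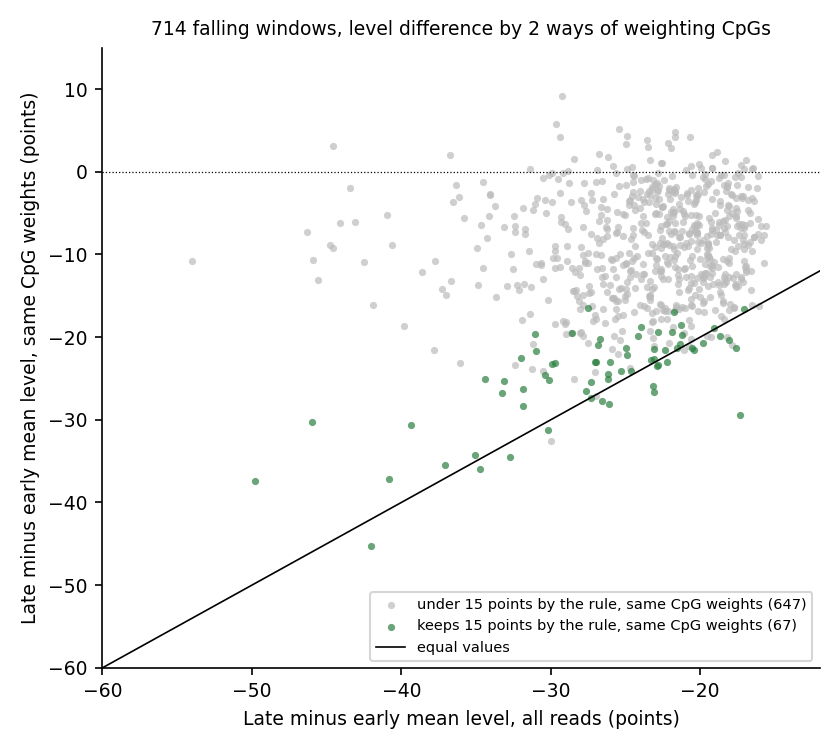
Late minus early mean level of 714 falling windows in percentage points, over all reads (x axis) and with the same weight for each CpG in all libraries (y axis). Each point is 1 window, the solid line marks equal values and the dotted line 0. Most points lie above the solid line, and the 67 windows that keep 15 points by the rule (green) lie near it.

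The reads had shifted between CpGs of different level, and the levels of the CpGs below 75% were lower late as well. Among the CpGs covered in all 4 libraries, those with a mean fraction over 75% held 58.9%, 61.9%, 41.1% and 43.2% of the reads of the falling windows at 2, 4, 8 and 24 hpf. In all eligible windows the same class held 88.1%, 87.3%, 87.8% and 89.0% of the reads. The CpGs with a mean fraction under 25% held 20.5%, 18.8%, 33.2% and 32.4% of the reads of the falling windows, against 5.87%, 6.66%, 5.55% and 4.67% in all eligible windows. Within the class over 75% the level of the falling windows was 95.4%, 95.3%, 94.4% and 89.2% at the 4 stages, so it changed little before 24 hpf. In the class between 25 and 75% it was 59.4%, 62.0%, 35.6% and 33.6%, and in the class under 25% it was 16.0%, 19.1%, 4.74% and 5.00% (5.08%, 4.63%, 3.27% and 4.97% in all eligible windows). These classes were formed from the levels themselves and describe the windows only.

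Single CpGs were compared as well. With 5 or more reads in every library, 4724 of the 12135 CpGs of the falling windows could be compared, and their median difference between late and early means was -6.25 points (quartiles -18.2 and 0). By 15 points or more fell 30.1% of them, against 3.56% of the CpGs of all eligible windows. By 50 points or more fell 49 CpGs (1.04%, against 0.0179% in all eligible windows), and 6 CpGs passed from above 75% to below 25%. In all eligible windows 270 of 12542209 CpGs did. The rule picked the falling windows on the reads of these same CpGs, so the contrasts are not independent of the choice. Falling windows also had fewer reads, with a median of 79 at 8 hpf against 137 in all eligible windows. The part of depth in these contrasts was not tested. Of 342 falling windows with 6 or more such CpGs, 86 had a fall of 15 points at no less than 50% of them, and 69 had none with such a fall. Of 380 windows with 20 or more reads on either side of their middle, 121 fell by 10 points or more on both sides, 213 on 1 side and 46 on neither. These counts per window were not made over all eligible windows.

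The 8 windows with the largest falls over all reads were mostly of this mixed kind. The change by the rule, the higher late minus the lower early level, was between -34.2 and -51.3 points in them. With the same CpG weights it did not reach -10 points in 7 of the 8. The late mean minus the early mean was then -10.8 points on chromosome 24, 3.15 on chromosome 17 and -8.85 on chromosome 8. It was -10.95 and -10.8 points on chromosome 6, -7.34 on chromosome 13 and -9.19 on chromosome 9. The window chr17:78001-79000 had 74.8%, 72.0%, 29.0% and 28.6% over all reads at 2, 4, 8 and 24 hpf, but 46.7%, 47.4%, 49.9% and 50.4% with the same weights. The window chr8:55695001-55696000 had 94.4%, 93.5%, 50.9% and 55.8% over all reads, but 83.6%, 91.3%, 81.5% and 75.6% with the same weights. In chr6:22178001-22179000 the levels over all reads were 98.2%, 93.8%, 58.7% and 57.8%, and a single CpG took 46.8% of the reads at 8 hpf, against 16.0% at 2 hpf. The others, chr6:54617001-54618000, chr13:34235001-34236000 and chr9:37440001-37441000, stood at 17.9 to 36.4% at the late stages over all reads, and at 21.9 to 53.4% with the same weights. With these weights they were at 36.4 to 64.0% at the early stages.

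The exception was the window chr1:14425001-14426000, with 22 CpGs. At 2 hpf 68.4% of 171 reads were methylated (61.1 to 74.9), at 4 hpf 62.1% of 177 (54.8 to 69.0), at 8 hpf 11.4% of 105 (6.66 to 18.9) and at 24 hpf 19.5% of 82 (12.4 to 29.4). With the same CpG weights it was 59.8%, 65.0%, 26.1% and 23.8%. Of its 5 CpGs with 5 or more reads in every library, 4 fell by 15 points or more, and the largest difference was -76.2 points. Those at -427, -423 and -419 bp from the middle lie close together, and each had 0 of 8 reads methylated at 8 hpf. The CpGs from there to -395 bp also had 0 of 8 each and can be crossed by the same few reads. The 105 reads at 8 hpf are counts summed over CpGs, so their interval can be far too narrow. At 310 bp the counts were 26 of 27, 12 of 12, 5 of 6 and 4 of 5 at the 4 stages. The CpG at -106 bp stayed methylated, with 41 of 41, 37 of 37, 6 of 6 and 10 of 11 reads. The window to its left stayed at 87.9%, 88.2%, 82.4% and 86.6%, and the one to its right stood at 92.9%, 85.6%, 91.7% and 76.1%.

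**Figure D3:**
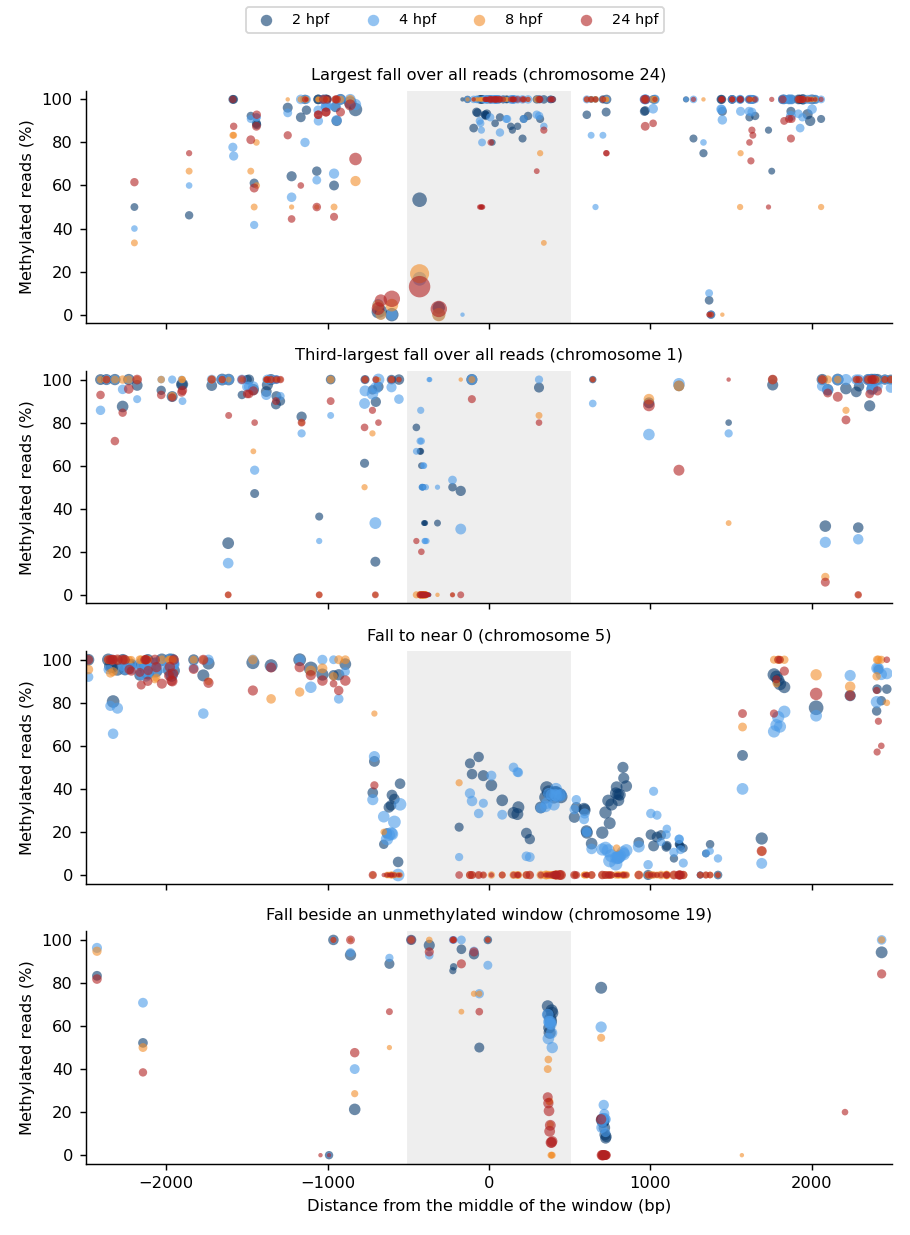
Share of methylated reads in percent (y axis) at each CpG against its distance from the middle of the window in bp (x axis), for 4 falling windows. Grey marks the 1 kb window, colours the 4 stages, and the area of a point grows with the square root of its reads. In the top panel the CpGs at the left edge are low at most stages and take 90.1% of the reads at 8 hpf, while the rest stay near 100%. In the panel for chromosome 5 most CpGs of the window lie well above 0 at 2 and 4 hpf and nearly all lie at 0 at 8 and 24 hpf.

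The 67 windows that kept the fall lay on 22 of the 25 chromosomes. With the same CpG weights their medians at 2, 4, 8 and 24 hpf were 61.5% (lowest 16.5%, highest 83.9%), 64.6% (24.1 to 88.9%), 34.7% (0 to 68.6%) and 34.0% (0 to 68.0%). Above 75% at both early stages were 14 of them, and 41 lay between 25 and 75%. Below 25% at both late stages were 20, below 10% were 10 and below 5% were 7. The level at 24 hpf was within 5 points of that at 8 hpf in 39, lower by 5 points or more in 12 and higher by 5 points or more in 16. The Wilson intervals of the early stages lay above those of the late stages in 47. Among 517 of their CpGs with 5 or more reads in every library, 361 (69.8%) fell by 15 points or more and 36 rose, with a median difference of -25.0 points. These 67 were picked by the same levels, so none of this is independent of the choice.

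Some windows were partly methylated early and had few or no methylated reads late. The clearest was chr5:26550001-26551000, with 23 CpGs. Of its 1313 reads at 2 hpf 36.5% were methylated (33.9 to 39.1), of 802 at 4 hpf 34.8% (31.6 to 38.1), of 259 at 8 hpf 1.16% (0.395 to 3.35) and of 211 at 24 hpf none, which allows up to 1.42%. All 23 CpGs were covered in every library, and the levels with the same weights were 36.0%, 33.7%, 1.31% and 0%. Of its 14 CpGs with 5 or more reads in every library, 11 fell by 15 points or more. The fall went on into the window to its right, at 26.5%, 12.5%, 0.329% and 0%. The window to its left was at 70.9%, 43.0%, 74.8% and 79.7% over all reads, but some of its CpGs were lower late as well. At -720 bp from the middle 13 of 34, 14 of 40, 0 of 6 and 0 of 12 reads were methylated, and at -551 bp 14 of 33, 22 of 67, 0 of 3 and 0 of 1. The CpG at -710 bp kept part, with 19 of 36, 22 of 40, 3 of 4 and 5 of 12.

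Of the 9 windows below 5% at both late stages over all reads, 8 kept a fall of 15 points with the same CpG weights. The exception, chr16:617001-618000, was at 20.8%, 20.1%, 3.40% and 4.43% over all reads. Besides the one on chromosome 5 these were chr2:14813001-14814000 (30.3%, 37.9%, 0 of 83 reads and 1.92%), chr14:5295001-5296000 (29.3%, 28.2%, 0 of 53 reads and 2.88%), chr14:2426001-2427000 (26.8%, 27.1%, 0 of 97 reads and 1.55%) and chr12:5073001-5074000 (24.7%, 37.5%, 0 of 67 reads and 2.03%). Further windows were chr15:2797001-2798000 (21.6%, 36.5%, 0.758% and 2.07%), chr13:4097001-4098000 (19.2%, 30%, 0 of 124 reads and 0.826%) and chr7:74765001-74766000 (20.9%, 24.4%, 3.18% and 3.95%). A count of 0 allows up to 3.61%, 5.66%, 3.09%, 4.48% and 2.42% for those on chromosome 2, for the first and second on chromosome 14, and for those on chromosomes 12 and 13. All 9 were between 19.2 and 37.9% at the early stages, and none of the 9 came from a highly methylated state.

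What lay next to them differed. The window on chromosome 2 had highly methylated neighbours at all stages, at 96.1% and 96.4% at 2 hpf and at 82.1% and 94.8% at 24 hpf. The one on chromosome 13 had neighbours that also fell, at 16.3%, 25.8%, 0% and 6.78% to its left and at 22.8%, 17.0%, 0.778% and 4.35% to its right. The window chr14:2426001-2427000 bordered on a window at 6.76% and 4.69% at 2 and 4 hpf, and the one on chromosome 12 on a window at 7.56% and 10.1%.

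Other windows with large falls under the same weights kept part of their methylation. The largest, chr15:42750001-42751000, had 63.8% (55.3 to 71.5), 56.7% (42.0 to 70.2), 9.23% (2.54 to 28.4) and 20.6% (11.4 to 34.3) at the 4 stages. These levels rest on 7 shared CpGs, with an effective number of 21.3 reads at 8 hpf. Over all its CpGs the window had 41 reads at that stage. Only 1 of its CpGs had 5 or more reads in every library. In chr16:34092001-34093000 the levels were 48.5%, 40.8%, 6.08% and 8.96%, and in chr15:13581001-13582000 they were 34.5%, 39.1%, 7.60% and 9.88%. In chr19:1261001-1262000, which lies beside an unmethylated window, they were 70.9%, 69.2%, 40.1% and 37.4%. Of its 10 CpGs with 5 or more reads in every library, 8 fell by 15 points or more. These 8 all lie between 364 and 392 bp to the right of the middle, with 5 to 10 reads each at 8 hpf. They can be crossed by the same reads. The CpGs at -482 and -370 bp stayed methylated, with 29 of 29 and 39 of 40 reads at 2 hpf and 16 of 16 and 17 of 18 at 24 hpf.

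Outside the windows the levels changed less. In bins of 200 bp with the same CpG weights, the 67 windows were at 56.7%, 60.4%, 30.5% and 30.01% in their middle bin at 2, 4, 8 and 24 hpf. The bin centred 800 bp to the left was at 75.3%, 75.2%, 74.1% and 72.0%, and that 800 bp to the right at 70.1%, 69.8%, 64.3% and 64.4%. At 2 kb the levels were again 84.2 to 91.0% on either side. For the windows directly to the left and right the mean difference was -4.58 and -3.95 points, and between -1.27 and -2.33 points 2 to 5 kb away. Around all 719 falling windows, windows 1 to 5 kb away, which the rule did not use, differed by -1.86 points on average over all reads, against -1.15 points over all eligible windows.

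**Figure D4:**
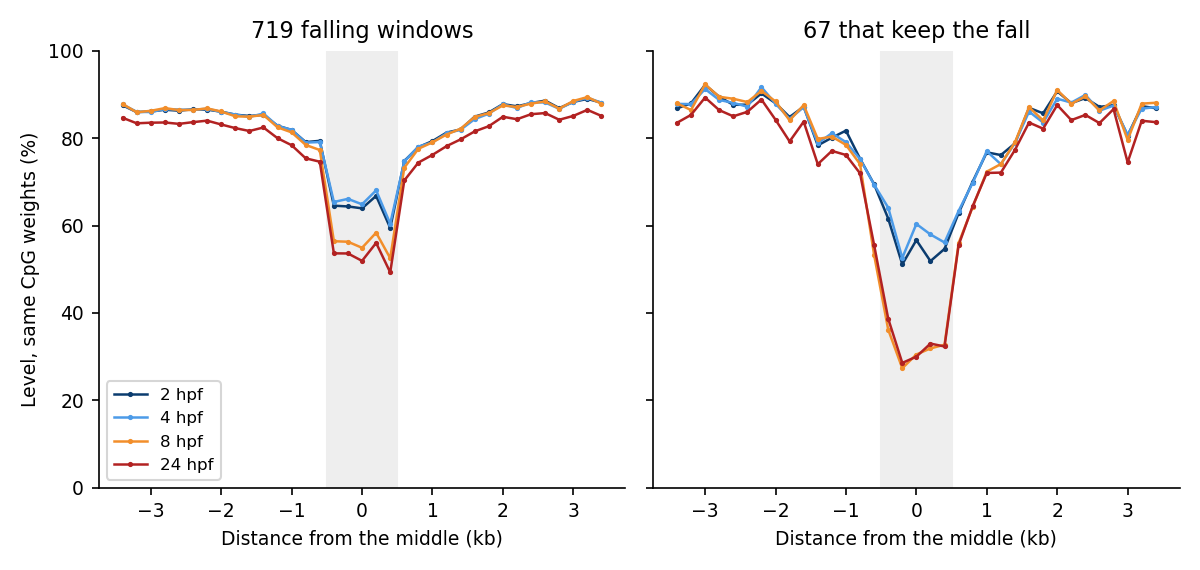
Methylation level in percent with the same CpG weights in all libraries (y axis) in 200 bp bins against the distance from the middle of the window in kb (x axis), for all 719 falling windows and for the 67 that keep the fall. Lines are the 4 stages and grey marks the window. The level dips in the window already at 2 and 4 hpf, at 56.7% and 60.4% in the middle of the 67, and deepens to 30.5% and 30.01% at 8 and 24 hpf, while the lines lie closer together 800 bp to either side.

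Most falling windows had no other falling window directly beside them. In 3 pairs they were direct neighbours, 6 of 719 windows (0.834%), and 658 had an eligible direct neighbour. Over all eligible windows 0.0701% were falling, and the share with a falling neighbour was not computed for these. Some direct neighbours were lower late without meeting the rule, such as those of chr13:4097001-4098000. The pair chr13:41387001-41389000 was at 54.7%, 44.0%, 21.8% and 23.9% over all reads, and both of its windows kept the fall with the same weights. The pair chr25:8783001-8785000 was at 91.6%, 87.0%, 69.2% and 66.8%, and the pair chr24:43872001-43874000, which holds the largest fall, at 72.9%, 74.8%, 29.4% and 34.0%.

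An unmethylated window, under 25% at both early stages, lay directly beside 83 falling windows (11.5%, interval 9.41 to 14.1), against 4.85% of all eligible windows. Of the 67 that kept the fall, 9 (13.4%) lay beside one. Of the 1355 rising windows, 46.6% did. The 83 windows beside an unmethylated one had medians of 63.2%, 66.9%, 39.8% and 41.3% over all reads, and the 636 others 77.6%, 78.8%, 55.0% and 54.3%.

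Falling windows were poorer in CpGs and in reads than others. They held a median of 14 CpGs, against 17 in all eligible windows, and 18 in the 67 that kept the fall. Windows with 6 to 9 CpGs were falling in 0.126% of cases, and those with 30 or more in 0.0580%. The median number of reads was 276, 215, 79 and 115 in the falling windows at the 4 stages, against 505, 357, 137 and 206 in all eligible windows. The share of falling windows was 0.245% with 40 to 59 reads at 8 hpf, 0.131% with 60 to 99, 0.0400% with 100 to 199 and 0.0220% with 200 or more. The share of rising windows also went down, with 0.196%, 0.169%, 0.135% and 0.0771% in these classes. A single CpG took a median of 21.4% of the reads of a falling window at 8 hpf, against 13.3% in all eligible windows. Thinned to the mean depth of 8 hpf, the libraries gave 764 falling windows (0.0811% of those eligible). With 80 or more reads there were 345 (0.0414%). Beyond these counts the part of depth in the choice of windows was not tested.

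By position, the share of falling windows was higher toward the chromosome ends. In the outer 500 kb it was 2.38 per 1000 eligible windows (46 windows on 22 chromosomes), and farther than 10 Mb from an end 0.591 per 1000 (379 windows). For rising windows these shares were 1.81 and 1.28 per 1000. The outer 500 kb held 6.40% of the falling and 1.88% of the eligible windows. Among the 67 that kept the fall, 1 lay there (1.49%). Coverage moved with position as well, with an eligible median of 1.06 times the library median at 8 hpf in the outer 500 kb and 1.59 times in the middle, and its part in the share was not tested. Across chromosomes the share was between 0.432 per 1000 on chromosome 25 and 1.08 per 1000 on chromosome 2. Within 100 kb of 6 viewpoints listed for the study's 4C experiments (nfixb, sox5, meis1b, barx1, lmx1ba and meis2a) lay 1012 eligible windows and no falling one, where the overall share of 0.0701% comes to less than 1 window.

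**Figure D5:**
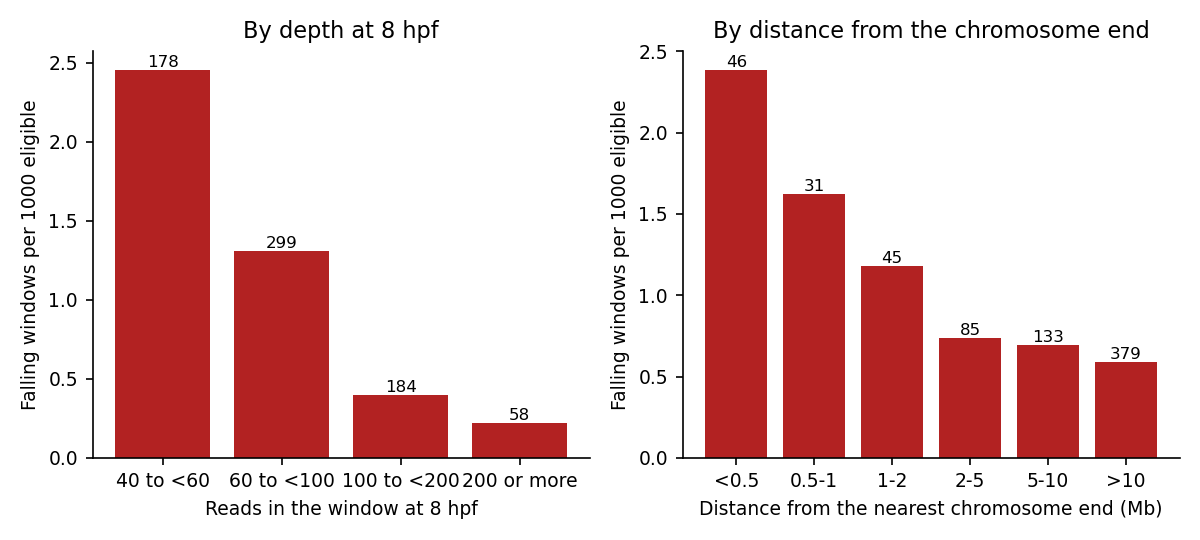
Falling windows per 1000 eligible windows (y axes, from 0) by the reads of a window at 8 hpf (left) and by the distance from the nearest chromosome end in Mb (right). Numbers above the bars count falling windows. The share is highest in the class with the fewest reads (178 windows) and in the outer 500 kb (46 windows).

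Libraries and CpGs that a choice did not use give levels that are partly free of it. When windows were picked on 2, 4 and 8 hpf alone, 4259 fell by 15 points, and their level at 24 hpf differed from the lower early level by a median of -6.03 points, against -1.49 points in all eligible windows. With the same CpG weights 1151 windows were picked, and their difference at 24 hpf was -1.73 points, against -1.66 points in all windows. When 8 hpf was left out instead, 7220 windows were picked with the same weights, and their difference at 8 hpf was 0.852 points, against 1.31 points in all windows. When 2 hpf was left out, the higher late level minus that of 2 hpf had a median of -8.68 points in 924 windows, against 0.798 points in all windows. Leaving out 4 hpf gave -13.0 points in 335 windows, against 0.812 points. In each case the levels on the other side of the difference had been used by the choice.

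The same was done with alternate CpGs. Windows picked on every other CpG with the same weights, with 6 or more CpGs and an effective depth of 40 or more reads in either set, numbered 46 and 54 of 617701 for the odd and the even CpGs. This setting was added after the data were seen. On the CpGs left out, the late mean was below the early mean in 97.8% and 96.3% of them, with medians of -18.98 and -15.8 points. Measured on all their shared CpGs, 69.7% of all eligible windows had a late mean below the early one. By the rule, the change on the CpGs left out had medians of -13.0 and -12.1 points. On both sets 19 windows fell by 15 points by the rule. With 3 or more CpGs and 20 or more reads in either set, 273 and 254 windows were picked. Their CpGs left out differed by less, with medians of -8.38 and -7.84 points, and of -3.27 and -2.38 points by the rule. Over all reads, with 6 CpGs and 40 reads, 421 and 435 windows were picked, and the CpGs left out differed by -10.4 and -10.8 points. With 3 CpGs and 20 reads these were 1581 and 1619 windows, with -5.65 and -4.99 points, and with -0.188 and 0.321 points by the rule. The odd and even CpGs of a window are often crossed by the same reads.

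At the limit, windows inside and outside had like levels over all reads. Just inside it were chr11:9637001-9638000 (78.6%, 75%, 60% and 52.5%), chr14:39052001-39053000 (71.2%, 86.2%, 56.2% and 51.4%) and chr9:31977001-31978000 (92.2%, 86.7%, 71.7% and 54.0%). Just outside it were chr25:35459001-35460000 (62.6%, 74.2%, 47.6% and 45.7%), chr12:275001-276000 (86.5%, 87.0%, 69.4% and 71.6%) and chr15:16394001-16395000 (50.9%, 55.6%, 33.0% and 35.9%). With the same CpG weights, the late mean minus the early mean was -11.4, 4.28 and -5.28 points in those inside. It was -15.8, -8.65 and -15.3 points in those outside. The first of those inside had 40 reads at 8 hpf and 40 at 24 hpf, the minimum of the rule.

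Between 8 and 24 hpf a few windows moved on. The largest further falls over all reads were in chr12:2756001-2757000 (50.5% at 8 hpf and 20.5% at 24 hpf), chr25:38067001-38068000 (35.7% and 7.05%) and chr13:38653001-38654000 (47.6% and 21.1%). With the same CpG weights the first of these had 47.8% and 20.3%, the second 36.8% and 28.7%, and the third 37.2% and 39.6%. The largest returns were in chr3:10365001-10366000 (0 of 46 reads at 8 hpf, which allows up to 6.52%, and 29.0% of 62 reads at 24 hpf), chr9:16306001-16307000 (38.9% and 60.9%) and chr16:58099001-58100000 (18.0% and 36.5%). With the same weights these were at 0% and 28.6%, 39.1% and 49.7%, and 29.7% and 34.2%. None of the 67 windows that kept the fall moved by 15 points or more between 8 and 24 hpf with the same weights, while over all reads 2 of them fell and 2 rose by as much.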

How the data were processed

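Genomic DNA of whole embryos was bisulfite-sequenced with paired-end libraries, and per the paper's methods the authors mapped the reads to Zv9 (danRer7). How reads were aligned and duplicates treated is not given in the sources used here. For every CpG the authors deposited the coverage, a count of reads, with the methylated fraction. Methylated reads are the product of both values, which was whole within 0.00124 reads. All 4 libraries list 24222160 nuclear CpGs. Median coverage was 27, 19, 6 and 10 reads at 2, 4, 8 and 24 hpf, so 8 hpf is the least precise. Mitochondrial CpGs, a limit on incomplete conversion, had 0.436 to 0.853% methylated reads.

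Reads were summed in 1 kb windows, given from the first base as 1. For the same CpG weights in every library, each CpG covered in all of them was weighted by the harmonic mean of its 4 coverages, so weights differ between CpGs, and intervals used the effective number of reads. Unmethylated neighbours and flanking windows needed 20 reads. Shares carry Wilson 95% intervals, and a count of 0 allows 3 reads. With 1 library per stage no test across stages was made. The functions were tested on simulated data.

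Members and lists were chosen with earlier results of these data known. Windows named are the 8 largest falls, up to 5 runs, 3 just inside and 3 just outside the limit, the 3 largest further falls and returns, and any within 100 kb of a 4C viewpoint. Windows below 5% late and those with large falls under the same weights were named after their values were seen. Gene names and sequences were left out because no Zv9 annotation or genome was used here. Python 3.11.15, numpy 2.4.6 and pandas 2.3.3 were used.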

Additional observations from a re-analysis of the deposited data

How the results depend on the processing

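The count of falling windows (719) was 3477 with a limit of 10 points, 184 with 20 and 61 with 25. It was 354 with 12 or more CpGs, 345 with 80 or more reads, 457 with coverage of at most 1.5 times the median, and 366 with means of the fractions of CpGs with 5 or more reads, and it stayed within 1.5 times the main count with 20 reads (1005), no coverage limit (799), shifted windows (740), thinning to the depth of 8 hpf (764) and separate Wilson intervals (543). Alternatives chosen after seeing the data gave 138 with the same CpG weights, 126 with these weights in shifted windows, and 3823, 1419, 9790 and 4259 with the rule applied without 2, 4, 8 or 24 hpf. The mirror count exceeded that of falling windows in each alternative where it was computed, by a little at 10 points (3565).

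The median change by the rule (-17.4 points) was -7.83 with means of fractions over the members and -4.42 with the same CpG weights. Chosen on every other CpG and measured on those left out, it was 0.0657 with 3 CpGs and 20 reads in each set. It was -5.12 with 6 CpGs and 40 reads, a setting added after the data were seen. Late minus early means were -5.30 and -10.7 points in these 2 settings. The rule takes the higher late and the lower early level, so on left-out CpGs it lies above the difference of means.

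The median of 14 CpGs was 17 with 25 points or 80 reads and 18 in the 67 windows that kept the fall with the same CpG weights. The share beside an unmethylated window (11.5%) was 8.34% with a limit of 10% and 15.4% with 50%, where all eligible windows had 3.55% and 6.58%. The share in runs (0.834%) was 2.01% with 10 points, 0% with 25 and 2.99% in the 67. Flanking windows (-1.86 points) differed by -1.92 with falling windows kept among them, -2.03 around those with no unmethylated neighbour and -2.33 around the 67. The share still falling by 24 hpf (3.89%, against 1.85% of all eligible windows) was 8.90% with 10 points. In the 67 it was 2.99% over all reads and 0% with the same CpG weights. Coverage of falling windows at 8 hpf was 1.19 times the library median, against 1.51 times in all eligible windows. It was 0.939 times in falling windows at most 1.5 times the median in every library. No paired analysis was possible because each stage has 1 library. The depth of 8 hpf and the lack of replicates limit all values.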

Other observations

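Among 63676 windows left out for a mean coverage over 3 times the library median in at least 1 library, 80 fell by 15 points or more by the same rule (0.126%), and 19 rose. In the eligible windows the order was the other way round, with 719 falling and 1355 rising. With the same CpG weights, 71 of the 138 windows that met the rule were not among the 719.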
